A study of Mus musculus with 45 samples.

Results

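The secreted products of mouse Paneth cells other than the defensins were followed across the ileum of 9 genotypes in 7 genes: Mptx1, Mptx2, Ang4, Lyz1, Clps, Itln1 and Mmp7. They were chosen by symbol, with earlier results of these data known, and are 7 of the 19494 genes measured. Each had 1 probe set on the array. Counts of them set beside the share of all genes are thus a description and not an independent test. Levels below are the deposited log2 intensities, so a difference of 1 is a 2-fold change. Probe sets differ in brightness, so levels were compared between mice and not between genes.

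The RNA came from the ileum of 45 mice, 10 to 12 weeks old, each on its own array, in 9 groups of 5. The controls, Fadd fl/fl and Casp8 fl/fl, carry floxed alleles without deletion. FADD IEC-KO and CASP8 IEC-KO mice lack FADD or caspase-8 in intestinal epithelial cells (IEC). In 3 further groups loss of FADD was joined by loss of ZBP1 (FADD IEC-KO Zbp1-/-), of MLKL (FADD IEC-KO Mlkl-/-) or of epithelial RIPK3 (FADD IEC-KO RIPK3 IEC-KO, called RIPK3 double mutants here). Loss of MLKL also joined loss of caspase-8 alone (CASP8 IEC-KO Mlkl-/-) or of both proteins (FADD IEC-KO CASP8 IEC-KO Mlkl-/-, called triple mutants here). FADD, caspase-8 and RIPK3 were deleted in the epithelium, while Mlkl-/- and Zbp1-/- are labelled as knockouts with no tissue named. The RNA came from ileum tissue, so transcripts of Fadd, Casp8 and Ripk3 from other cells can remain in the signal. The promoter that drove the deletion and the sex of the mice were not given in the sources used here.

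FADD is the adaptor that brings caspase-8 to death receptors, and loss of either releases necroptosis, a lytic cell death run by the kinase RIPK3 and its executioner MLKL, with ZBP1 as one of the sensors that can engage RIPK3. Paneth cells sit at the crypt base of the small intestine, hold large secretory granules and release antimicrobial proteins beside the stem cells. Lyz1 encodes the lysozyme of these granules, which cleaves bacterial cell walls. Ang4 encodes a bactericidal ribonuclease of the angiogenin family. Mptx1 and Mptx2 encode mucosal pentraxins. Itln1 encodes intelectin-1, a lectin that binds microbial sugars and is also made by goblet cells. Clps encodes colipase, the cofactor of pancreatic lipase. Mmp7 encodes matrilysin, the protease that in mice converts pro-alpha-defensins into their active form.

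The sequence before the transcription start is shown for 2 pairs of related genes and for Mmp7, because the genes of each pair fell together in the data below and Mmp7 was not called after loss of FADD or of caspase-8. Each stretch is the 250 bases upstream of the start, 5′ to 3′ on the gene's strand, from RefSeq on GRCm38.p6. The places are chr1:174330268-174330517 (plus strand) for Mptx1, chr1:173277757-173278006 (minus strand) for Mptx2, chr10:117292869-117293118 (minus strand) for Lyz1, chr10:117282273-117282522 (minus strand) for Lyz2 and chr9:7691840-7692089 (plus strand) for Mmp7. Capitals mark CTTTGA or CTTTGT on either strand, the core that TCF factors of the Wnt pathway bind, and TATAAA on the gene's strand.
Mptx1: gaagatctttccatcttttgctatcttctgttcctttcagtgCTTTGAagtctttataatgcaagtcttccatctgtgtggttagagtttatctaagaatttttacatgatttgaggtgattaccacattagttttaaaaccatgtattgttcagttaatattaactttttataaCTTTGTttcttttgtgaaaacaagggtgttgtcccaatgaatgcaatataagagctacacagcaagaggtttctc
Mptx2: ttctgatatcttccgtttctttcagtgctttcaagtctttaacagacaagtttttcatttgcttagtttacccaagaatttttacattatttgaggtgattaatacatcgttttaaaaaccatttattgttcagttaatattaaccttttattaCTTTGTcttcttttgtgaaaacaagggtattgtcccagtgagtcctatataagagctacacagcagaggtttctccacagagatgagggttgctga
Lyz1: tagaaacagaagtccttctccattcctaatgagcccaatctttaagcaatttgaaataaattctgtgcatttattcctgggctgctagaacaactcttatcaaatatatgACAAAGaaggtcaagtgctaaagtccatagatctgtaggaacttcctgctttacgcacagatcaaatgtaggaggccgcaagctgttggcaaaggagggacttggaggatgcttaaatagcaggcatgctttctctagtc
Lyz2: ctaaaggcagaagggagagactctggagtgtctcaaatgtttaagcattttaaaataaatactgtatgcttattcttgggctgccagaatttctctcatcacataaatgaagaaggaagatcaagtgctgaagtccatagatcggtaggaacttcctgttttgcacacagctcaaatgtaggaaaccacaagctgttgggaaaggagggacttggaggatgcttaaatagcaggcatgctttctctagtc
Mmp7: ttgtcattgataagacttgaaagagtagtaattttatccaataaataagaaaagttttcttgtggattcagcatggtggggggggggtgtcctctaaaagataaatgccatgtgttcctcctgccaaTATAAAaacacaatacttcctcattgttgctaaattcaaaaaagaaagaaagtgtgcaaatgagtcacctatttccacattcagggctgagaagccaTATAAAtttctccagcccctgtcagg

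The Mptx1 and Mptx2 stretches were identical at 202 aligned bases (74% of aligned columns) and those of Lyz1 and Lyz2 at 205 (78.8%). Pairs of unrelated genes among Mptx1, Mptx2, Ang4, Lyz1, Itln1, Mmp7 and Lyz2 reached 47.2% to 52.6%. The TCF core stood at -208 and -75 in Mptx1, at -96 in Mptx2, at -113 in Ang4 and at -140 in Lyz1, counted from the start. Itln1, Mmp7 and Lyz2 did not hold these letters in the window. Of 27025 mouse promoters of the same length, 27.8% held the core. TATAAA was found in Mmp7, at -123 and -26, and in none of the other windows searched, against 8.13% of all promoters. Mptx1 and Mptx2 are related genes, as are Lyz1 and Lyz2, so a probe set of one may also detect the other. The stretches compared above lie before the transcript, so their identity does not bear on this, and transcripts were not compared. The probes' own sequences were not used here.

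Array medians lay between 6.36 and 6.44. Fadd averaged 7.53 ± 0.06 (SD, n = 5) in Fadd fl/fl and 6.05 to 6.45 in the 5 groups that lack it in the epithelium. Casp8 averaged 11.35 ± 0.09 in Casp8 fl/fl and 9.55 to 10.23 in the 3 groups that lack it. Mlkl lay at 6.94 to 7.32 in triple mutants and at 7.85 to 8.39 in FADD IEC-KO Mlkl-/- mice. In CASP8 IEC-KO Mlkl-/- it lay at 8.18 to 8.66, overlapping Casp8 fl/fl (8.43 to 8.98) and CASP8 IEC-KO (8.54 to 9.18). The array signal thus did not settle the Mlkl label of that group. Zbp1 in FADD IEC-KO Zbp1-/- (5.66 to 6.46) likewise overlapped FADD IEC-KO (5.83 to 7.94). Ripk3 in the RIPK3 double mutants (7.33 to 7.76) lay below FADD IEC-KO (8.29 to 9.25). The array labelled FADD IEC-KO, mouse 1, had Fadd at 7.32 against 5.96 to 6.45 in the other 4 mice of its group. Fadd fl/fl mice had 7.46 to 7.61. The array labelled CASP8 IEC-KO, mouse 1, had Casp8 at 10.89 against 9.63 to 10.57, still below the 11.24 to 11.49 of Casp8 fl/fl. Results that rest on these groups are given with and without both arrays, called doubtful here. Mouse 1 of Fadd fl/fl stood lowest of its group in 7 of the 7 genes, with a mean over them of 9.07 against 11.16 to 11.39 in the other 4. Its alpha-defensin mean was 11.09 against 11.35 to 11.53, its mean over ileal markers 12.09 against 11.44 to 11.72, and its mean over macrophage markers 7.07 against 7.45 to 7.69, and their part in its low values was not tested. Sample titles carry numbers either under 100 or of 200 and over, with no explanation in the labels, and results are also given within such a series where it holds enough mice. Counts within a series, in fits of the groups alone or with mice left out come without the share of all genes called in that fit. They show how a count depends on the fit and are not by themselves a result about these genes.

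**Figure D1:**
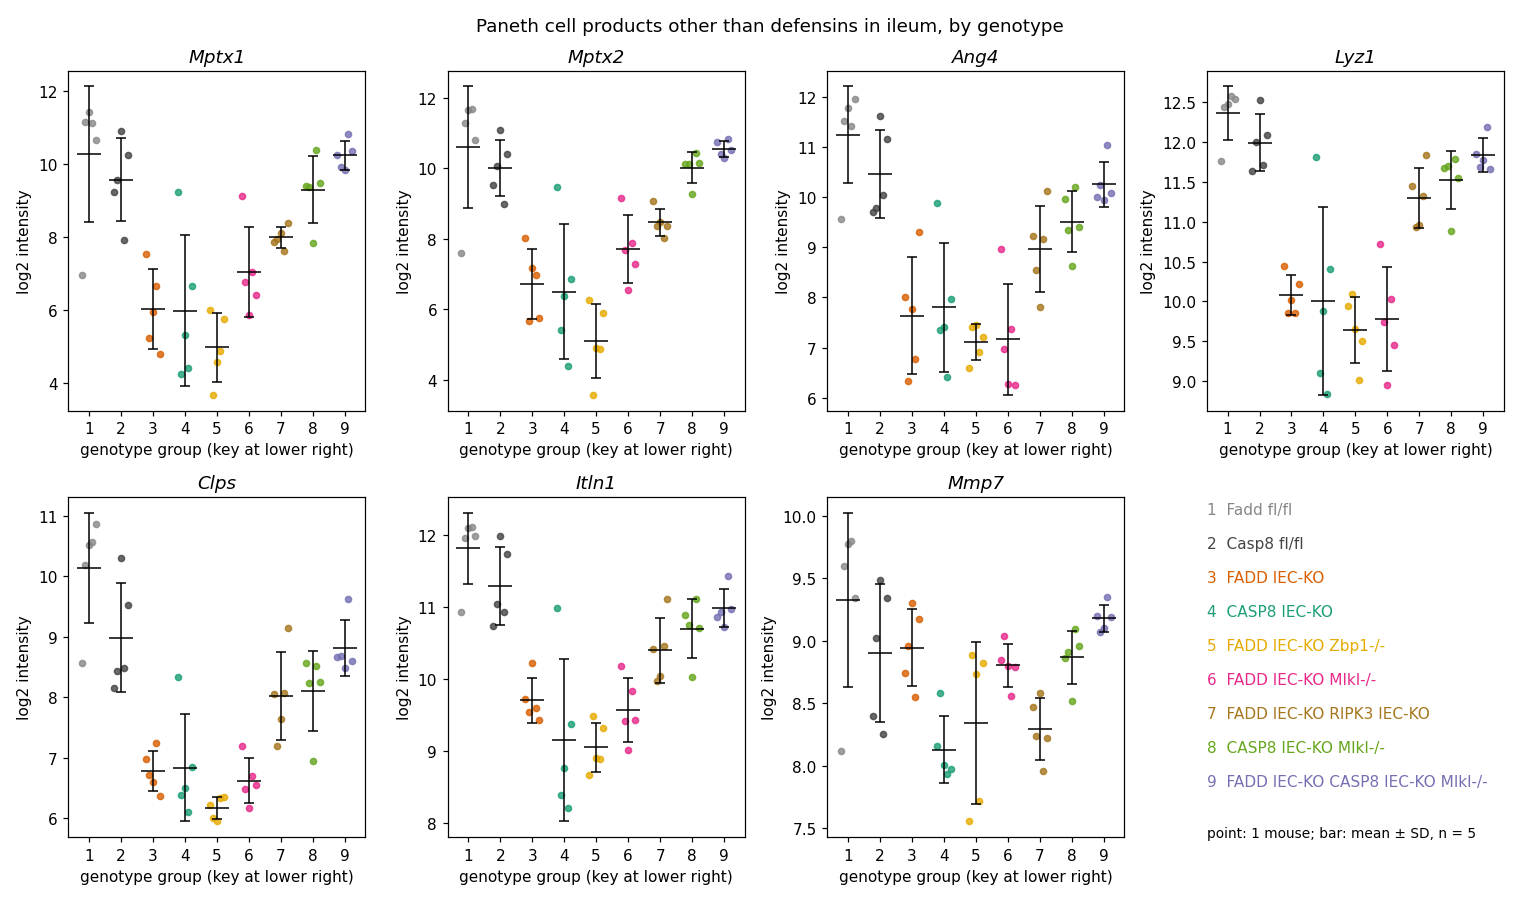
Log2 intensity (y axis) of each of the 7 genes in 9 genotype groups (x axis, numbered in the key). Each point is 1 mouse and bars are the mean ± SD of 5 mice. Lyz1 lies between 9.86 and 10.44 in FADD IEC-KO and between 11.76 and 12.57 in Fadd fl/fl, while for Mmp7 these 2 groups overlap.

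In mice that lack FADD in the epithelium 6 of the 7 genes were lower, every one but Mmp7. The mean differences from Fadd fl/fl were 19.0-fold for Mptx1, 14.7-fold for Mptx2, 12.2-fold for Ang4, 10.3-fold for Clps, 4.86-fold for Lyz1 and 4.31-fold for Itln1. Among all genes, 1.92% were lower by the same rule, an adjusted p under 0.05 in limma with Benjamini-Hochberg adjustment. In bulk tissue, fewer Paneth cells and less RNA per cell cannot be told apart. Of 5 neutrophil markers 1 was higher, S100a8 (1.45, adjusted p = 0.0013 in limma), and the mean over the 5 was 5.20 (4.70 to 5.77) against 4.67 (4.62 to 4.76) in Fadd fl/fl, and of 7 macrophage markers 2 were lower. The part of either in the changes was not tested.

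For lysozyme, Lyz1, the 5 Fadd fl/fl mice had 11.76, 12.44, 12.48, 12.57 and 12.53, and the 5 FADD IEC-KO mice had 10.44, 9.86, 10.02, 9.86 and 10.21. The groups did not overlap. The log2 fold change was -2.28 ± 0.32 (SE, adjusted p = 2.81e-05 in limma). For colipase, Clps, the controls had 8.58, 10.18, 10.52, 10.57 and 10.87 and the knockouts 6.98, 6.72, 6.60, 7.24 and 6.37. Every knockout lay below every control, including the low control mouse, and the change was -3.36 ± 0.39 (adjusted p = 1.00e-06).

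For Ang4, values were 9.56, 11.51, 11.77, 11.42 and 11.95 in the controls and 8.0, 6.34, 7.77, 6.77 and 9.31 in the knockouts. The highest knockout, mouse 5, came near the lowest control without reaching it. The change was -3.61 ± 0.54 (adjusted p = 6.59e-05). For Itln1, the controls had 10.93, 11.95, 12.09, 12.10 and 11.98 and the knockouts 9.72, 9.54, 10.23, 9.60 and 9.44, again without overlap, and the change was -2.11 ± 0.32 (adjusted p = 8.68e-05). Complete separation in the lower direction, seen for Ang4, Lyz1, Clps and Itln1, was found in 1.59% of all genes.

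The pentraxins fell most on the log2 scale and varied most. Mptx1 was at 6.97, 11.17, 11.43, 11.13 and 10.66 in Fadd fl/fl and at 7.52, 5.22, 5.94, 6.65 and 4.79 in FADD IEC-KO. Mptx2 was at 7.59, 11.27, 11.66, 11.67 and 10.80, against 8.04, 5.66, 7.17, 6.97 and 5.77. The overlap in both came from control mouse 1, which fell below knockout mouse 1, the array with Fadd near the control level. The changes were -4.25 ± 0.73 for Mptx1 (adjusted p = 4.12e-04) and -3.88 ± 0.65 for Mptx2 (adjusted p = 2.86e-04). Without control mouse 1 they were -5.07 and -4.63.

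Within titles under 100, where 4 knockouts met 2 controls, 1 of them the low mouse, the 6 changes lay between -3.32 for Ang4 and -1.67 for Itln1, and 0 of the 7 genes passed. The SE of the Lyz1 change was 0.47 in that fit, against 0.32 in the fit of all mice. Without the 2 doubtful arrays, 6 genes again passed.

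In mice that lack caspase-8, 6 of the 7 genes were again lower, against 1.28% of all genes, and Mmp7 did not pass. The differences from Casp8 fl/fl were 12.1-fold for Mptx1, 11.3-fold for Mptx2, 6.32-fold for Ang4, 4.43-fold for Clps, 4.40-fold for Itln1 and 3.96-fold for Lyz1. The spread between knockout mice was wide, and for each of the 6 genes the highest knockout was mouse 1, the array in which Casp8 stood highest.

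Lyz1 shows the pattern. Its 5 Casp8 fl/fl mice had 11.64, 12.00, 12.52, 11.71 and 12.09, and its 5 CASP8 IEC-KO mice had 11.81, 9.10, 9.88, 8.84 and 10.41. Knockout mouse 1 lay inside the control range and the other 4 lay below it. The change was -1.99 ± 0.32 (adjusted p = 2.17e-04 in limma) with that mouse and -2.43 (adjusted p = 1.09e-07) without the 2 doubtful arrays.

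For Mptx1 the controls were at 9.25, 9.55, 10.91, 7.93 and 10.27 and the knockouts at 9.25, 4.25, 5.32, 4.42 and 6.67, a change of -3.60 ± 0.73 (adjusted p = 0.0029). For Mptx2 they were at 9.53, 10.06, 11.07, 8.99 and 10.41 against 9.47, 5.43, 6.38, 4.41 and 6.85, a change of -3.50 ± 0.65 (adjusted p = 0.0010). Knockout mouse 1 was at the control level for both pentraxins, and the other 4 lay below all 5 controls.

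For Ang4 the controls were at 9.69, 9.79, 11.62, 10.05 and 11.16 and the knockouts at 9.89, 7.36, 7.41, 6.41 and 7.96 (-2.66 ± 0.54, adjusted p = 0.0028). For Clps they were at 8.16, 8.43, 10.30, 8.49 and 9.52 against 8.34, 6.39, 6.50, 6.11 and 6.84 (-2.15 ± 0.39, adjusted p = 9.04e-04). For Itln1 they were at 10.74, 11.04, 11.98, 10.93 and 11.73 against 10.99, 8.39, 8.77, 8.21 and 9.38 (-2.14 ± 0.32, adjusted p = 8.31e-05). All 3 genes repeat the arrangement of Lyz1: 4 knockouts below the controls and mouse 1 among them.

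A fit of the 2 groups alone, which uses their own wider spread, called 0 of the 7 genes, with adjusted p between 0.089 and 0.112 for the 6 and 0.158 for Mmp7. Within titles under 100 (3 knockouts and 4 controls) the changes of the 6 lay between -3.13 for Mptx1 and -1.70 for Lyz1 and 0 passed, the smallest adjusted p being 0.0506, for Itln1. In CASP8 IEC-KO mouse 1 the alpha-defensins also stood higher than in the other 4 mice, at a mean of 11.03 against 6.94 to 9.36, and smooth muscle markers lower, at 10.27 against 10.80 to 11.08. The part of either in its values was not tested.

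The changes after loss of FADD and of caspase-8 were compared by their interaction. It called 0 of the 7 genes and 0% of all genes, and 1 of the 7, Clps, had an unadjusted p under 0.05, as 6.52% of all genes had. The Clps difference between the changes was -1.22 ± 0.55 (adjusted p = 0.7115), with a 95% interval of -2.33 to -0.10. For Lyz1 the interval was -1.22 to 0.63 and for Mptx1 -2.74 to 1.44, so differences of that size were not resolved.

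With Mlkl deleted in the mice that lack caspase-8, 4 of the 7 genes were higher, Mptx1, Mptx2, Lyz1 and Itln1, against 1.59% of all genes. Mptx2 was at 10.11, 10.11, 9.28, 10.44 and 10.14 in CASP8 IEC-KO Mlkl-/-, against a mean of 6.51 ± 1.90 (SD, n = 5) in CASP8 IEC-KO, and Mptx1 was at 9.41, 9.36, 7.84, 10.39 and 9.50 against 5.98 ± 2.06. The rise was 11.4-fold for Mptx2 (log2 3.51 ± 0.65, adjusted p = 4.83e-04 in limma) and 9.97-fold for Mptx1 (3.32 ± 0.73, adjusted p = 0.0046). The spread between mice was also smaller for Mptx2, with an SD of 0.43 against 1.90. The larger SD includes CASP8 IEC-KO mouse 1, which lay 2.96 above its group mean, and the difference in spread was not tested.

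Lyz1 was at 11.68, 11.70, 10.89, 11.78 and 11.55 in CASP8 IEC-KO Mlkl-/-, a rise of 1.51 ± 0.32 on the log2 scale (adjusted p = 0.0031). Itln1 was at 10.89, 10.75, 10.03, 11.11 and 10.70, a rise of 1.55 ± 0.32 (adjusted p = 0.0023). Goblet cell markers rose beside it in 3 of 9, Clca1 (0.72), Fcgbp (0.39) and Tff3 (0.38), and the mean over the 9 went from 10.41 (10.26 to 10.58) to 10.76 (10.65 to 10.88), without overlap. The part of goblet cells in the Itln1 rise was not tested. For Lyz1 and Itln1, only knockout mouse 1 without Mlkl loss overlapped these mice. Ang4 (9.96, 9.35, 8.63, 10.21 and 9.40), Clps (8.57, 8.23, 6.95, 8.52 and 8.25) and Mmp7 (8.86, 8.91, 8.51, 9.09 and 8.96) differed by 1.71, 1.27 and 0.74, with adjusted p of 0.0807, 0.0711 and 0.1129.

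Without the 2 doubtful arrays, Ang4 (2.23, adjusted p = 0.00816) and Clps (1.64, adjusted p = 0.00731) passed too, for 6 in all. The fit of the 2 groups alone called 2 genes, Mptx2 and Mmp7, and within titles under 100 the values lay between 0.60 and 2.98 and 0 passed.

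Against Casp8 fl/fl, CASP8 IEC-KO Mlkl-/- had 0 of the 7 genes called, and 1.09% of all genes were called in either direction. At an unadjusted p under 0.05, which 11.8% of all genes had, 1 of the 7 passed, Clps, with a difference of -0.88 ± 0.39 and a 95% interval of -1.67 to -0.09. The interval for Lyz1 was -1.12 to 0.18 and that for Mptx1 -1.76 to 1.20. The largest difference was that of Ang4, -0.95 (adjusted p = 0.504 in limma), and Itln1 differed by -0.59 (adjusted p = 0.484). Mptx2 (0.0043) and Mmp7 (-0.034) differed least.

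With Mlkl deleted in the mice that lack FADD, 0 of the 7 genes passed in limma against FADD IEC-KO, while 1.61% of all genes were called. At an unadjusted p under 0.05 the count was also 0, against 10.5% of all genes. Lyz1 was at 10.72, 9.74, 8.96, 10.03 and 9.46 in FADD IEC-KO Mlkl-/-, against a mean of 10.08 ± 0.25 in FADD IEC-KO, a difference of -0.30 ± 0.32. Clps was at 7.19, 6.48, 6.17, 6.71 and 6.56, a difference of -0.16 ± 0.39, and Ang4 at 8.96, 6.96, 6.27, 7.36 and 6.26, a difference of -0.48 ± 0.54. The pentraxins were about 1 higher, Mptx1 by 1.02 ± 0.73 and Mptx2 by 0.99 ± 0.65, within the spread of mice. Without the 2 doubtful arrays these differences were 1.40 (adjusted p = 0.406) and 1.32 (adjusted p = 0.338).

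These mice stayed below Fadd fl/fl in 6 of the 7 genes, against 6.35% of all genes lower. Ang4 (-4.08 ± 0.54, adjusted p = 2.13e-06), Clps (-3.52 ± 0.39, adjusted p = 6.25e-08) and Lyz1 (-2.58 ± 0.32, adjusted p = 8.20e-07) stood farthest from their spread. Itln1 was at 10.18, 9.42, 9.01, 9.83 and 9.43. Ang4, Lyz1, Clps and Itln1 did not overlap the controls, as 5.63% of all genes did not in that direction. Ang4, Lyz1, Clps and Itln1 again passed within titles under 100 (5 mice against 2), at -3.38, -2.32, -2.76 and -1.87. Smooth muscle markers were lower than in Fadd fl/fl in 3 of 5, and their part was not tested.

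Whether the change with Mlkl loss differed between the FADD and the caspase-8 line was tested by the interaction. It called 0 of the 7 genes and 0.0564% of all genes, while 7 of the 7 had an unadjusted p under 0.05 with the larger rise in the caspase-8 line, as 3.25% of all genes had in that direction. The differences ran from -2.52 ± 0.91 for Mptx2 to -0.88 ± 0.35 for Mmp7, with Lyz1 at -1.81 ± 0.46 (adjusted p = 0.1746) and Itln1 at -1.68 ± 0.46 (adjusted p = 0.2318). Without the 2 doubtful arrays, Lyz1 (-2.17) and Itln1 (-2.13) passed, each with an adjusted p of 0.00755. With the lines compared directly, CASP8 IEC-KO Mlkl-/- was above FADD IEC-KO Mlkl-/- in Mptx2 (2.30 ± 0.65, adjusted p = 0.0461), Ang4 (2.35 ± 0.54, adjusted p = 0.0110), Lyz1 (1.74 ± 0.32, adjusted p = 0.0014) and Clps (1.48 ± 0.39, adjusted p = 0.0318), 4 of 7 against 1.54% of all genes. The count was 2 without any 1 of 8 of the 10 mice, 4 without CASP8 IEC-KO Mlkl-/- mouse 3 and 6 without FADD IEC-KO Mlkl-/- mouse 1. Smooth muscle markers moved as well, with 4 of 5 higher in CASP8 IEC-KO Mlkl-/-, and their part in the differences was not tested.

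With RIPK3 deleted along with FADD, 1 of the 7 genes was higher than in FADD IEC-KO, Lyz1, against 0.831% of all genes. Lyz1 was at 11.44, 10.93, 10.96, 11.32 and 11.84 in the RIPK3 double mutants, above all 5 FADD IEC-KO mice. The rise was 1.22 ± 0.32 (adjusted p = 0.0407 in limma), and it no longer passed without any 1 of 7 of the 10 mice. Mptx1 was at 7.87, 7.96, 8.11, 7.63 and 8.39, also above all 5 FADD IEC-KO mice, with a difference of 1.96 ± 0.73 (adjusted p = 0.1793). Complete separation upward was found in 1.31% of all genes. Without the 2 doubtful arrays, Lyz1 passed at 1.31 (adjusted p = 0.00607). Mptx1 at 2.34 (adjusted p = 0.0542) and Mptx2 at 2.07 (adjusted p = 0.0507) did not pass there.

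Mptx2, Ang4, Clps and Itln1 of the RIPK3 double mutants had means between those of FADD IEC-KO and Fadd fl/fl. Mptx2 was at 9.08, 8.38, 8.49, 8.03 and 8.37 (1.75, adjusted p = 0.1732), Ang4 at 9.22, 8.54, 7.81, 9.16 and 10.12 (1.33, adjusted p = 0.2241) and Clps at 8.06, 7.20, 7.64, 8.06 and 9.15 (1.24, adjusted p = 0.0999). Itln1 was at 10.41, 9.98, 10.04, 10.46 and 11.10, a difference of 0.69 (adjusted p = 0.3127). Mmp7, with a mean of 8.29, lay below both groups and differed from FADD IEC-KO by -0.65 (adjusted p = 0.1906). At an unadjusted p under 0.05, 6 of the 7 were higher, as were 7.02% of all genes, and Mmp7 was lower, as were 7.14%. Of 5 neutrophil markers, 2 were lower than in FADD IEC-KO, S100a8 (-1.01) and S100a9 (-0.83), and their part was not tested. Lyz1 was at 1.07 within titles under 100 (3 against 4 mice), and 0 passed there.

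Against Fadd fl/fl the RIPK3 double mutants were lower in 4 genes, Ang4 (-2.27 ± 0.54, adjusted p = 0.0222), Clps (-2.12 ± 0.39, adjusted p = 0.0025), Itln1 (-1.41 ± 0.32, adjusted p = 0.0171) and Mmp7 (-1.03 ± 0.25, adjusted p = 0.0236), against 0.662% of all genes. Without control mouse 1, 7 passed. Without control mouse 2 or 5 the count was 2, and without control mouse 3 or 4 or double mutant mouse 2 it was 1. Within titles of 200 and over (2 against 3 mice) the changes ran from -3.17 for Mptx2 to -0.95 for Lyz1 and 5 passed, every one but Lyz1 and Itln1. Within titles under 100 (3 against 2) they ran from -2.01 for Ang4 to -0.43 for Mmp7 and 0 passed.

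With ZBP1 lost along with FADD, each of the 7 means lay below that of FADD IEC-KO, but 0 of the 7 passed in limma, where 3.32% of all genes were called. At an unadjusted p under 0.05, 2 passed, Mptx2 and Mmp7, against 17.8% of all genes. The 7 differences lay between -1.62 for Mptx2 and -0.44 for Lyz1. Clps was at 6.21, 6.01, 5.95, 6.33 and 6.35, below all 5 FADD IEC-KO mice, with a difference of -0.61 ± 0.39. These Clps values lie under the median of all genes, 6.49, and the level of background was not determined. Such separation downward was found in 1.8% of all genes. Without the 2 doubtful arrays, Mptx2 differed by -1.29 (adjusted p = 0.246) and Mmp7 by -0.65 (adjusted p = 0.192).

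Against Fadd fl/fl, FADD IEC-KO Zbp1-/- mice were lower in 7 of the 7 genes, Mmp7 included, against 7.08% of all genes. Mptx2 was at 6.27, 3.57, 4.92, 4.87 and 5.90, a change of -5.49 ± 0.65 (adjusted p = 1.74e-07). Mptx1 was at 6.01, 3.66, 4.56, 4.87 and 5.76, a change of -5.30 ± 0.73 (adjusted p = 3.31e-06). These pentraxin values also lie under the median of all genes, 6.49. Both pentraxins lay below every control, the low mouse included, as did Ang4 (6.60, 7.41, 7.45, 6.91 and 7.21), Lyz1 (9.94, 10.09, 9.65, 9.02 and 9.51), Clps and Itln1 (8.67, 9.49, 8.91, 8.89 and 9.32). Separation of this kind was found in 3.64% of all genes. Macrophage markers were lower in 4 of 7 and goblet markers in 3 of 9, and their part was not tested. Within titles of 200 and over (2 against 3 mice) 7 passed, with Mptx2 at -5.99, and within titles under 100 (3 against 2) 4 passed, with Mptx2 at -4.51.

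Set against each other, the RIPK3 double mutants were above FADD IEC-KO Zbp1-/- in Mptx1 (3.02), Mptx2 (3.36), Lyz1 (1.66), Clps (1.85) and Itln1 (1.34), 5 of 7 against 1.45% of all genes, and 3 without RIPK3 double mutant mouse 5. Within titles of 200 and over 6 passed, and within titles under 100 0 passed. Compared with FADD IEC-KO Mlkl-/-, they were above in Ang4 (1.81, adjusted p = 0.0398), Lyz1 (1.52, adjusted p = 0.0029) and Clps (1.40, adjusted p = 0.0278), against 2.91% of all genes, and 1 passed without RIPK3 double mutant mouse 4 or 5 or FADD IEC-KO Mlkl-/- mouse 2, 3 or 5. FADD IEC-KO Zbp1-/- was below FADD IEC-KO Mlkl-/- in Mptx2 alone (-2.61, adjusted p = 0.0134), against 2.36%, and 0 passed without FADD IEC-KO Mlkl-/- mouse 1. Smooth muscle markers were higher in FADD IEC-KO Zbp1-/- than in FADD IEC-KO Mlkl-/- in 5 of 5, and their part was not tested.

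**Figure D2:**
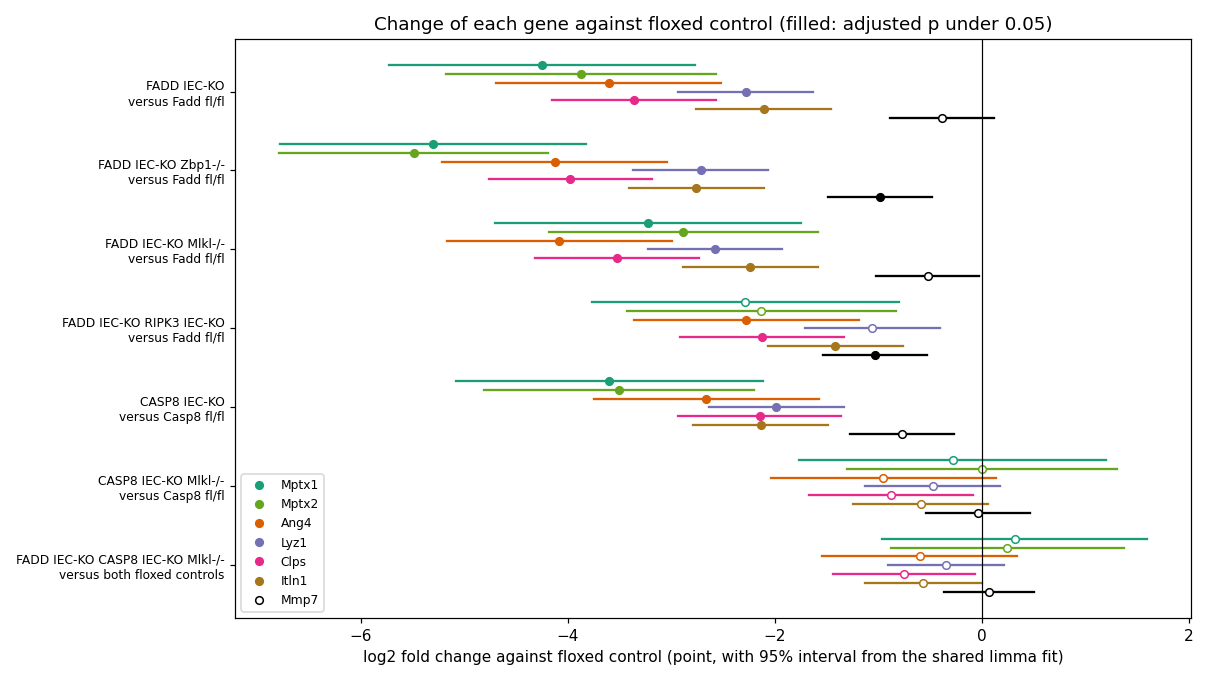
Log2 fold change of each gene against its floxed control (x axis) for 7 mutant groups (y axis), with 95% intervals from the shared fit. Filled points have an adjusted p under 0.05. In FADD IEC-KO 6 genes lie between -4.25 and -2.11, while the 7 points of CASP8 IEC-KO Mlkl-/- lie between -0.95 and 0.00 and none is filled.

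The triple mutants, which lack FADD, caspase-8 and MLKL, overlapped the floxed mice in each of the 7 genes. All 5 triple mutants have title numbers of 200 and over, while 4 Casp8 fl/fl and 2 Fadd fl/fl mice have numbers under 100. Genotype and title series are thus partly mixed in this comparison. Lyz1 was at 11.84, 11.69, 11.78, 12.19 and 11.65, Mptx2 at 10.73, 10.39, 10.29, 10.83 and 10.52, and Ang4 at 10.00, 10.24, 9.94, 11.03 and 10.07. Against both floxed groups together, 0 of the 7 passed in limma, where 3.69% of all genes were called. At an unadjusted p under 0.05, 2 passed, Clps and Itln1, against 17.8% of all genes. Clps, at 8.66, 8.68, 8.49, 9.63 and 8.60, differed by -0.75 (adjusted p = 0.2258), and Itln1 by -0.57 (adjusted p = 0.2808).

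Against FADD IEC-KO Mlkl-/-, 6 of the 7 genes were higher in the triple mutants, against 5.51% of all genes. The rise was 9.18-fold for Mptx1 (3.20 ± 0.73 on the log2 scale, adjusted p = 0.0047), 8.53-fold for Ang4 (3.09 ± 0.54, adjusted p = 3.29e-04), 7.16-fold for Mptx2, 4.56-fold for Clps, 4.14-fold for Lyz1 (2.05 ± 0.32, adjusted p = 7.76e-05) and 2.66-fold for Itln1. Mptx1 was at 10.27, 9.92, 9.84, 10.84 and 10.37 in the triple mutants and at 9.12, 6.78, 5.87, 7.05 and 6.41 in FADD IEC-KO Mlkl-/-. All 7 genes were without overlap, Mmp7 included, as 6.87% of all genes were in that direction. The 5 triple mutants have title numbers of 200 and over and the 5 FADD IEC-KO Mlkl-/- mice have numbers under 100, so genotype and title series cannot be told apart in this comparison. Smooth muscle markers were higher in 5 of 5 as well, by 0.47 to 0.97, and their part was not tested.

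Against CASP8 IEC-KO Mlkl-/-, 0 of the 7 passed in limma, where 3.1% of all genes were called, and 0 had an unadjusted p under 0.05, which 15.6% of all genes had. Of the CASP8 IEC-KO Mlkl-/- mice, 4 have title numbers under 100, so genotype and title series are partly mixed here too. The differences ran from 0.28 for Itln1 to 0.95 for Mptx1. The floxed groups did not differ by the test either, with 0 of the 7 and 0.00513% of all genes called. Casp8 fl/fl was nominally lower in each gene, by 0.37 for Lyz1 to 1.16 for Clps (adjusted p = 0.3197), and 1 of the 7, Clps, had an unadjusted p under 0.05, as 8.38% of all genes had.

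Ordered by group mean, Fadd fl/fl stood highest in each of the 7 genes, and FADD IEC-KO Zbp1-/- lowest in the 6 genes other than Mmp7. In those 6 the upper 4 places were held by the triple mutants, both floxed groups and CASP8 IEC-KO Mlkl-/-, the next by the RIPK3 double mutants and the lower 4 by the other groups. Neighbours in that order overlapped in their mice with 1 exception, the gap of 1.22 in Lyz1 between the RIPK3 double mutants and FADD IEC-KO.

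Mmp7 followed another order. Its mice were at 8.12, 9.60, 9.78, 9.80 and 9.34 in Fadd fl/fl, at 8.74, 8.96, 9.30, 8.55 and 9.17 in FADD IEC-KO, and at 8.84, 9.04, 8.80, 8.55 and 8.79 in FADD IEC-KO Mlkl-/-. The knockout ranges lay inside that of the controls, and the log2 fold change after FADD loss was -0.38 ± 0.25 (adjusted p = 0.4367), with a 95% interval of -0.88 to 0.12. Without the low control mouse it was -0.68 (adjusted p = 0.0837), and FADD IEC-KO Mlkl-/- then passed at -0.82 (adjusted p = 0.0152) in place of -0.52 (adjusted p = 0.1917).

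The lowest Mmp7 mean was that of CASP8 IEC-KO, whose mice were at 8.15, 8.58, 8.0, 7.93 and 7.97, against 8.40, 9.02, 9.49, 8.25 and 9.35 in Casp8 fl/fl. The difference was -0.77 ± 0.25 (adjusted p = 0.0653). Here mouse 1, high in the 6 other genes, lay 0.02 above the group mean. The 5 triple mutants were at 9.20, 9.07, 9.10, 9.35 and 9.19, the narrowest spread of Mmp7 in any group (SD 0.11).

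In the RIPK3 double mutants the mice were at 8.47, 8.24, 8.59, 7.95 and 8.22. In FADD IEC-KO Zbp1-/- they fell apart, with 7.55 and 7.72 in mice 1 and 4 and 8.88, 8.73 and 8.82 in the other 3. These were the groups in which Mmp7 fell below Fadd fl/fl, by -1.03 ± 0.25 (adjusted p = 0.0236) and -0.98 ± 0.25 (adjusted p = 0.0065). In fits of the groups alone neither passed, with adjusted p of 0.133 and 0.125. The first was also lost without any 1 of 7 of the 10 mice, while the second passed without any 1 of the 10. They were at -0.43 and -0.47 within titles under 100 and did not pass, and within titles of 200 and over they were at -1.55 and -1.37 and passed.

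Some mice were high or low within their group in several genes at once, while others were mixed. FADD IEC-KO Zbp1-/- mouse 1 was highest in 2 genes and lowest in 3, and mouse 2 highest in 3 and lowest in 2. FADD IEC-KO mouse 5 was highest in 1 and lowest in 3. CASP8 IEC-KO Mlkl-/- mouse 3 was lowest of its group in 7 of 7 genes, the triple mutant mouse 4 highest in 7 and Casp8 fl/fl mouse 3 highest in 7. FADD IEC-KO Mlkl-/- mouse 1 was highest in 6. In that mouse the alpha-defensin mean was also above the other 4, at 10.41 against 8.82 to 9.78. The mean over 14 other genes that Paneth cells express was below the other 4, at 7.70 against 7.71 to 7.80, while epithelial markers were at 12.03 against 12.00 to 12.09.

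**Figure D3:**
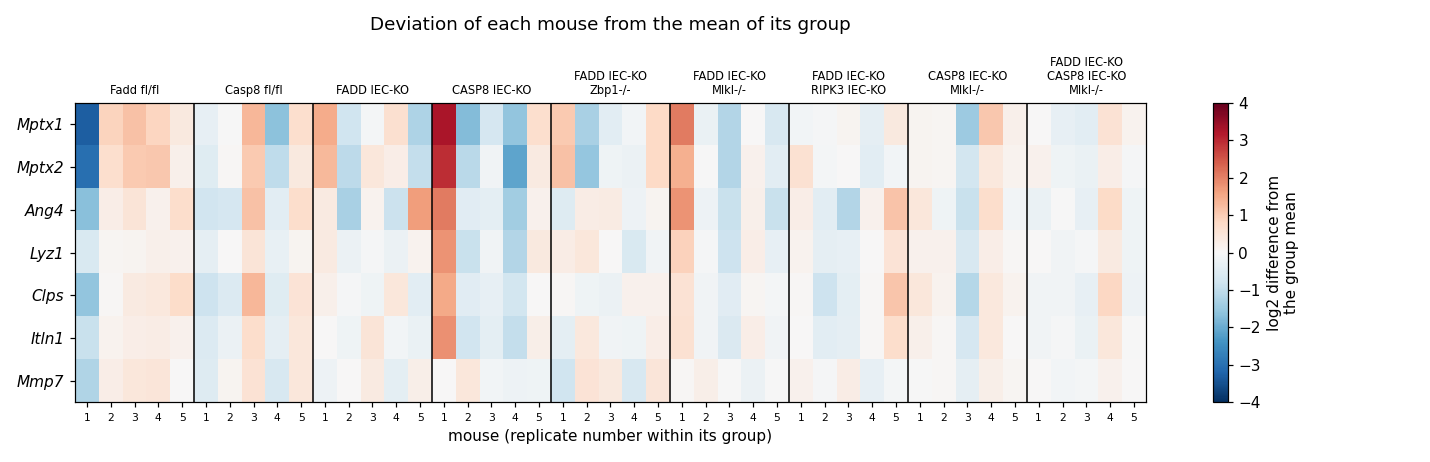
Deviation of each of the 45 mice (x axis, replicate number within its group) from its group mean on the log2 scale, for each of the 7 genes (y axis). Columns of 1 colour show mice that deviate in the same direction across genes, such as Fadd fl/fl mouse 1, lowest of its group in 7 of 7, and CASP8 IEC-KO mouse 1, highest in 6.

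Within groups, over the deviations of the 45 arrays from their group means, Mptx1 and Mptx2 correlated at r = 0.95. The pairs among Mptx1, Mptx2, Ang4, Lyz1, Clps and Itln1 lay between 0.63 (Mptx2 with Ang4) and that value, with Lyz1 and Itln1 at 0.88. Mmp7 correlated with the 6 at 0.26 to 0.44. Over the 9 group means the 6 genes reached 0.91 to 1.0 with each other, and Mmp7 reached 0.61 to 0.74 with them. The points share the array, so its RNA quality and cell makeup enter each pair, and cross-detection may enter the pentraxin pair.

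**Figure D4:**
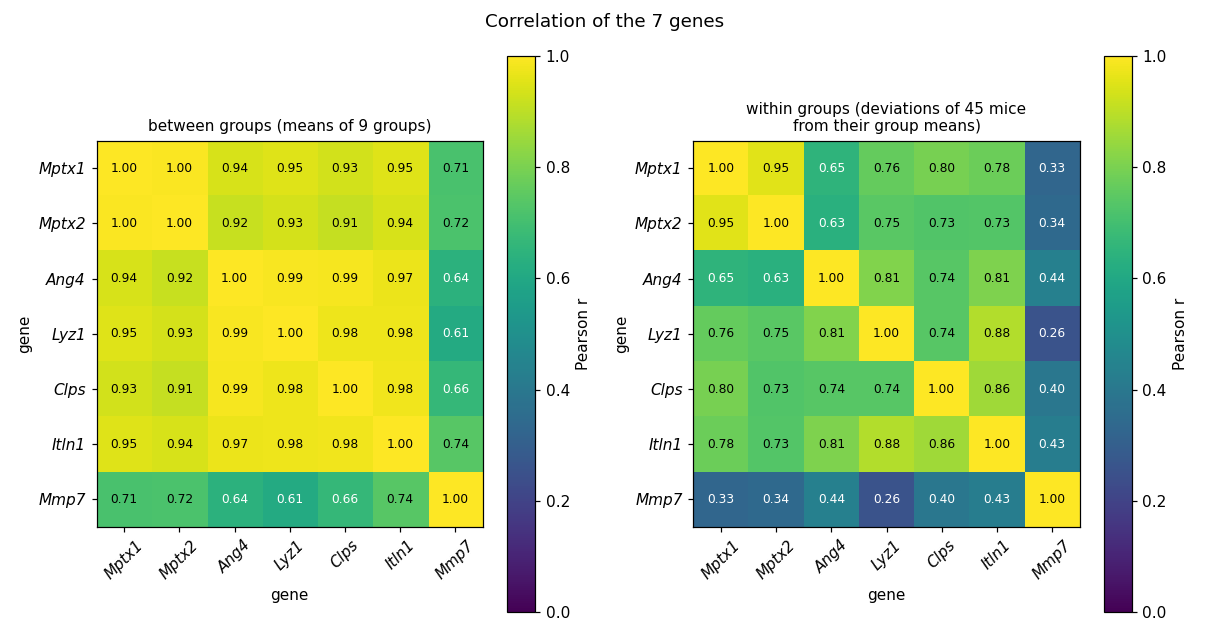
Pearson r between the 7 genes (both axes), over the 9 group means (left) and over the deviations of 45 mice from their group means (right). Mmp7 has the lowest values in both panels, 0.61 to 0.74 and 0.26 to 0.44.

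For each of the 7, the named genes with the highest r over the 45 arrays were found. Mptx1 was nearest to Defa41 (0.94), Defa30 and Defa37, and Mptx2 to Defa41 (0.96), Defa37 and Defa34, all alpha-defensins. Lyz1 (0.96), Ang4 (0.95) and Itln1 (0.95) were nearest to Lyz2, the second mouse lysozyme gene. Clps was nearest to Pnliprp2 (0.94), a lipase of the family that colipase assists. Mmp7 was nearest to Pla2g2a (0.83), the secreted phospholipase of Paneth granules, followed by Trp53i11 (0.79) and Tgm2 (0.78). Within groups the r of Mmp7 with Pla2g2a was 0.82.

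Pla2g2a itself was at -0.27 after FADD loss (adjusted p = 0.7906) and at -0.44 after caspase-8 loss (adjusted p = 0.5938). It was lower in FADD IEC-KO Zbp1-/- than in Fadd fl/fl, by -1.64 (adjusted p = 0.0048), and lower than in FADD IEC-KO, by -1.36 (adjusted p = 0.0448). In the RIPK3 double mutants it was at -1.43 against Fadd fl/fl (adjusted p = 0.0631).

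The alpha-defensins, of which 21 were measured, moved beside the 6 genes. They are related genes, so a probe set of one may also detect others, and the 21 may not be separate readings. After FADD loss 21 of 21 were lower, against 1.92% of all genes. Their median log2 fold change was -2.51, beside -3.36 for the 7 genes and -0.0018 for all genes. After caspase-8 loss 21 of 21 were lower (median -2.70), against 1.28% of all genes. When Mlkl was deleted in that line 21 of 21 were higher (2.46), against 1.59%. With RIPK3 deleted beside FADD, 17 of 21 were above FADD IEC-KO (median 1.92) and 1 of 21 was below Fadd fl/fl. The 7 genes gave counts of 1 and 4 there, and the shares of all genes were 0.831% and 0.662%. Whether the defensins and these 7 genes differed in that respect was not tested.

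Of 14 further genes that Paneth cells express, followed as a list, 3 fell after FADD loss, Pnliprp2 (-2.35), Habp2 (-1.57) and the antimicrobial lectin Reg3a (-1.43), and 2 fell after caspase-8 loss, Pnliprp2 (-1.27) and Habp2 (-0.86). The list's median change was -0.10 and -0.08. In FADD IEC-KO Mlkl-/- 6 fell against Fadd fl/fl, led by Pnliprp2 (-2.94).

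Of 12 regulators of secretory cell fate and secretion, 1 fell after FADD loss, Bhlha15 (-0.74, adjusted p = 0.0104), a transcription factor of secretory cells. After caspase-8 loss 1 fell, Atoh1 (-0.36, adjusted p = 0.0461), the factor that directs cells to the secretory lineage. Atoh1 was 0.40 higher in CASP8 IEC-KO Mlkl-/- than in CASP8 IEC-KO (adjusted p = 0.0280).

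Of 10 measured relatives of the 7 genes, Lyz2 (-2.17), Ang2 (-1.56) and Ang5 (-0.71) fell after FADD loss, and Lyz2 (-1.70) fell after caspase-8 loss. Lyz2 is also a macrophage gene. Of 7 macrophage markers, 2 were lower after FADD loss, Csf1r (-0.61) and C1qb (-0.71), with a list median of -0.51, and 0 after caspase-8 loss, with a median of -0.11. The part of macrophages or of shared detection with Lyz1 in the Lyz2 values was not tested.

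Other sources of Clps and Itln1 were looked at by their markers. Of 13 measured pancreatic acinar genes, 0 were called after loss of FADD, after loss of caspase-8 or on deletion of Mlkl in the caspase-8 line. Their means over all arrays lay between 3.45 (Try4) and 6.39 (Cela2a), under the median of all genes at 6.49. Their r with Clps over the 45 arrays ranged from -0.36 to 0.40. Of 9 goblet cell markers, 1 was lower after FADD loss, Clca1 (-0.45), and 7 after caspase-8 loss, led by Clca1 (-0.67), Fcgbp (-0.58) and Sytl2 (-0.49), with a median of -0.43 beside -2.14 for Itln1. The part of goblet cells in the Itln1 change after caspase-8 loss was not tested.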

How the data were processed

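RNA from ileum was measured on 45 microarrays, 1 mouse each. The deposited values were log2 intensities, made by the authors with Affymetrix software. The submitters' processing notes name Expression Console and Transcriptome Analysis Console. Their versions and the normalization method were not given in the sources used here. Values ran from 1.36 to 13.41. Of 22142 probe sets, 19527 had 1 gene symbol in the platform annotation and 2615 had none and were left out. For the 33 genes with several, the brightest was kept, leaving 19494. No filter was applied.

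Groups followed the sample titles, because the genotype field of the triple mutants does not name FADD. All 45 arrays entered 1 limma fit (limma 3.58.1, R 4.3.3) with a mean for each group and 36 residual degrees of freedom, and eBayes tested 18 comparisons and 2 interactions. Benjamini-Hochberg adjustment ran over 19494 genes in each, and a gene was called at an adjusted p under 0.05. Errors of changes are standard errors of that fit, so groups that vary more than the rest have errors that are too small. The steps were checked on simulated data. The labels do not say whether mice were littermates. Precision is limited by the number of arrays.

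The 7 genes and all gene lists were chosen with earlier results of these data known. From a list, up to 3 called genes with the largest change were named, and measured relatives. Alternatives were a fit of the groups compared alone, the title series as a covariate or taken separately, quantile normalization, median centring, a filter on dim genes, array weights, trended and robust eBayes and each mouse left out. Leaving out the 2 doubtful arrays, those with the highest signal of the targeted gene in their knockout group, was chosen after seeing the data. Promoter sequences came from RefSeq.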

Additional observations from a re-analysis of the deposited data

Results flagged for a closer look

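In groups of 5, a mouse is listed here where its gap to the nearest of the others, divided by the range of the group, was above Dixon's 95% critical value of 0.71. This gave 11 values in 63 groups, and chance lists about 1 in 20 groups, but genes measured on the same arrays are not independent.

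Mouse 1 of Fadd fl/fl was far below the other 4 in 6 genes: Mptx1 at 6.97 (nearest 10.66), Mptx2 at 7.59 (nearest 10.80), Ang4 at 9.56, Lyz1 at 11.76, Itln1 at 10.93 and Mmp7 at 8.12. Mouse 3 of CASP8 IEC-KO Mlkl-/- was far below in Mptx2 at 9.28, Lyz1 at 10.89 and Clps at 6.95. Mouse 4 of the triple mutants was far above in Ang4 at 11.03 and Clps at 9.63.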

How the results depend on the processing

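Under the alternatives run, 2537 of 2751 changes of single genes kept their direction and their side of the threshold, 115 lost the call, 49 gained it and 50 turned their direction, 0 of these with a call on either side. Of 393 counts of called genes, 47 moved by over 1.5 times. The cause was not tested for these, except that taking 1 title series or the groups alone leaves fewer mice. No paired analysis was possible because the titles share no numbers across groups. Averaging several probe sets per gene could not be run, since each of the 7 genes has 1. The counts below are of the 7 genes and come without the share of all genes called in the same fit.

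Within titles under 100 the count was 0 for FADD IEC-KO and for CASP8 IEC-KO against their controls, for CASP8 IEC-KO Mlkl-/- against CASP8 IEC-KO, for FADD IEC-KO RIPK3 IEC-KO against FADD IEC-KO, Fadd fl/fl, FADD IEC-KO Mlkl-/- or FADD IEC-KO Zbp1-/-, and for FADD IEC-KO Zbp1-/- against FADD IEC-KO Mlkl-/-. Within titles of 200 and over, which held 3 comparisons, it was 5 for the RIPK3 double mutants against Fadd fl/fl, 6 for them against FADD IEC-KO Zbp1-/- and 7 for FADD IEC-KO Zbp1-/- against Fadd fl/fl. Within titles under 100 it was 4 for this last comparison and 2 for CASP8 IEC-KO Mlkl-/- against FADD IEC-KO Mlkl-/-. In fits of the groups alone it was 0 for CASP8 IEC-KO against Casp8 fl/fl, 2 for CASP8 IEC-KO Mlkl-/- against CASP8 IEC-KO and 2 for FADD IEC-KO RIPK3 IEC-KO against Fadd fl/fl. Array weights gave 7 for CASP8 IEC-KO Mlkl-/- against CASP8 IEC-KO and 2 for the Mlkl interaction, which was also 2 without the 2 doubtful arrays. Trended and robust eBayes gave 0 for FADD IEC-KO RIPK3 IEC-KO against FADD IEC-KO, and the title series as a covariate gave 1 for it against FADD IEC-KO Mlkl-/-.

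With 1 mouse left out, counts for FADD IEC-KO RIPK3 IEC-KO ranged from 0 to 1 against FADD IEC-KO, 1 to 7 against Fadd fl/fl, 1 to 3 against FADD IEC-KO Mlkl-/- and 3 to 6 against FADD IEC-KO Zbp1-/-. They ranged from 0 to 1 for FADD IEC-KO Zbp1-/- and from 2 to 6 for CASP8 IEC-KO Mlkl-/-, both against FADD IEC-KO Mlkl-/-, and from 0 to 2 for the Mlkl interaction (2 without CASP8 IEC-KO mouse 1).

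Directions turned as follows within titles under 100: Mmp7 to 0.028 in FADD IEC-KO against control, 0.055 in CASP8 IEC-KO Mlkl-/- against control and 0.040 in the RIPK3 double mutants against FADD IEC-KO Zbp1-/-; Lyz1 to 0.11 in FADD IEC-KO Zbp1-/- against FADD IEC-KO Mlkl-/-; Mptx1 to 0.34 and Mptx2 to 0.48 between the floxed groups, and to 0.39 and 0.35 in the interaction of FADD and CASP8 loss. In that interaction Mptx2 turned to 0.042 and Lyz1 to 0.064 without the 2 doubtful arrays. Mptx2 turned to -0.0060 with quantile normalization and -0.12 with array weights in CASP8 IEC-KO Mlkl-/- against control, and with array weights Mmp7 turned to -0.036 in the triple mutants against both controls and Ang4 to 0.099 in FADD IEC-KO Zbp1-/- against FADD IEC-KO Mlkl-/-.

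With 1 mouse left out, changes spanned 0 in CASP8 IEC-KO Mlkl-/- against control for Mptx1 (-0.69 to 0.085), Mptx2 (-0.25 to 0.27) and Mmp7 (-0.20 to 0.11), and in the triple mutants against both controls for Mptx1 (-0.094 to 0.48), Mptx2 (-0.13 to 0.38) and Mmp7 (-0.083 to 0.14). They did so in FADD IEC-KO Zbp1-/- against FADD IEC-KO Mlkl-/- for Ang4 (-0.27 to 0.40) and Lyz1 (-0.35 to 0.095), for Itln1 in FADD IEC-KO Mlkl-/- against FADD IEC-KO (-0.28 to 0.010), for Mmp7 in the RIPK3 double mutants against FADD IEC-KO Zbp1-/- (-0.25 to 0.086), and in the interaction of FADD and CASP8 loss for Mptx1 (-1.47 to 0.17), Mptx2 (-1.12 to 0.37), Lyz1 (-0.59 to 0.15) and Itln1 (-0.21 to 0.49).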
